A study of Mus musculus with 4 samples.

Results

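Transcripts of 9 genes of the circadian clock and of its casein kinases were followed in the left hippocampus of Tg2576 (APPSw) mice and nontransgenic mice. The genes are Clock, Arntl, Per1, Per2, Cry1, Dbp, Tef, Csnk1d and Csnk1e. They were taken as the probe sets whose only gene symbol in the platform annotation is one of these names, which gave 14 of the 12422 probe sets compared and 9 of 8251 genes. On these arrays a transcript is read by a probe set, a group of short probes. Each of 2 APPSw arrays and 2 control arrays held total RNA of a male mouse aged 12 months. APPSw mice overexpress amyloid precursor protein carrying the Swedish mutation, and the control strain is labelled C57B6/SJL. The Tg2576 transgene is driven by a prion protein gene promoter, so it is expressed in many brain cells and not in the hippocampus alone. The labels do not say whether the animals were littermates, and the sources used here do not give the time of day at which tissue was taken. The 9 genes were chosen with the APPSw and control signals of these arrays in view, picked in part on the large difference of a Csnk1d probe set. Differences between APPSw and control are therefore given for the 9 genes as descriptions, with no test.

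The mammalian clock is a feedback loop of transcription. CLOCK and ARNTL, also called BMAL1, pair as activators and bind E-box elements in the genes of their own inhibitors, the period (PER) and cryptochrome (CRY) proteins. Casein kinase 1 delta and epsilon phosphorylate PER proteins and so set their stability and the length of the cycle. DBP and TEF are related transcription factors whose genes are clock outputs, and they act on D-box elements. Several of these transcripts, Per2 and Dbp among them, oscillate through the day in mouse tissues, and casein kinase 1 delta is also known to phosphorylate the protein tau.

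The E-box is the element through which CLOCK and ARNTL act, so promoters of member genes that hold it are shown. The windows run from 250 bases before to 50 after a transcription start in RefSeq (build GRCm38.p6). They are written 5′ to 3′ along the gene, with the E-box CACGTG in capitals.
Tef promoter, chr15:81802423-81802722 (+ strand): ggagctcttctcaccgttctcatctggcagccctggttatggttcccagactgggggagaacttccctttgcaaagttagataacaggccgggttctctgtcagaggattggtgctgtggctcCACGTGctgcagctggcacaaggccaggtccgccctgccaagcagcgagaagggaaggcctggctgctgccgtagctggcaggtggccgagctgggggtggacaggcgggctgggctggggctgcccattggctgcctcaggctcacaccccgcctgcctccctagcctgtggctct
Tef promoter, chr15:81811164-81811463 (+ strand): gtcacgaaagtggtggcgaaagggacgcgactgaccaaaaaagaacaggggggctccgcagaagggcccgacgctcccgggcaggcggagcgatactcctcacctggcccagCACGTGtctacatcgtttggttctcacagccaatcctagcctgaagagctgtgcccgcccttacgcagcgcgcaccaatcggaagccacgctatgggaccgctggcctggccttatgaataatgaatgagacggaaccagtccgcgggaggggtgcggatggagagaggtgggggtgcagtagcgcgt
Per1 promoter, chr11:69098699-69098998 (+ strand): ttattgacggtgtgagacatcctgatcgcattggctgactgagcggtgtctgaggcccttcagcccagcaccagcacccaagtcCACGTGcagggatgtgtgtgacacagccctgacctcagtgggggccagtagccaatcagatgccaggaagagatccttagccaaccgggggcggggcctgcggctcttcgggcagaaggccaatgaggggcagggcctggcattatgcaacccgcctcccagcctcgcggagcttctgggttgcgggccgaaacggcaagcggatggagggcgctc
Cry1 promoter, chr10:85185005-85185304 (- strand): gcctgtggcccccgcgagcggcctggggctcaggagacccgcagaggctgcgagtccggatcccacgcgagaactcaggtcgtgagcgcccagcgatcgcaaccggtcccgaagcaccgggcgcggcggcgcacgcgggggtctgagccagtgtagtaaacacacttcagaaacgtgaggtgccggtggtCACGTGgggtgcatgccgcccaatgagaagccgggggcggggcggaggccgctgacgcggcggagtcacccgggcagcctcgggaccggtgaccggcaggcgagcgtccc
Promoter windows were found for 7 of the 9 genes, 15 windows in all, some of which overlap each other. None was found for Per2 or Csnk1d, so the promoters of those genes were not searched. CACGTG, searched on both strands, lay in 4 of the 15 windows, those of 3 genes, and in 7.15% of all 32817 promoter windows of that length. Its first base was 127 and 138 bases before the start in the Tef windows, 166 bases before it in the Per1 window and 60 bases before it in the Cry1 window. Neither the D-box letters TTATGTAA or TTACGTAA nor the cyclic AMP response element TGACGTCA lay in any of the 15 windows, on either strand, against 1.05% and 1.79% of all windows. A match describes the letters in these windows and shows no binding. Tef and Per1 had lower signals and Cry1 a higher signal in APPSw mice, as given below. Any part of the E-box in these differences was not tested, and elements outside the windows were not searched.

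The values are linear MAS 5.0 signals that the authors scaled to a common target. Array medians were 1033 and 1013 on APPSw arrays 1 and 2, and 926.3 and 988.3 on control arrays 1 and 2. Probe sets with a mean log2 signal under the 40th percentile, equal to a signal of 565, were left out of the fit across the array, which kept 7453 probe sets and 12 of the 14 here. The probe sets left out both belong to Cry1. By limma, 0% of the 7453 probe sets (0 probe sets) passed an adjusted p of 0.05, the lowest adjusted p was 0.599, and 600 (8.05%) had an unadjusted p under 0.05. Markers of hippocampal principal neurons, 11 of 11 on the array and none at 0, had summed signals of 60599 and 51783 in APPSw mice and 78580 and 69980 in controls, so the groups did not overlap. Markers of the choroid plexus, 8 of 12 on the array and none at 0, summed to 135197 in APPSw 1 and 17169 in APPSw 2, against 23848 and 14603 in controls. Hypothalamic markers, 8 of 11 on the array and none at 0, summed to 9540 and 7751 in APPSw mice and 7377 and 7858 in controls. Without Oxt, the brightest, the sums were 6358 and 4693 in APPSw mice and 5189 and 5617 in controls, which overlap. Oxt lay above both controls, with a difference of 0.49, and Hcrt below both, with -1.51. Of the 5 kept genes, 4 were above 0 and 1 below. Markers of the suprachiasmatic peptides were dim, with Vip at 428.5 and 398.7 in APPSw mice and 354.2 and 582.5 in controls. Without Nrgn, the brightest neuronal marker, the neuronal sums were 46482 and 42309 in APPSw mice and 59104 and 51514 in controls. Of the 10 kept neuronal genes, 1 was above 0 and 9 below, with a median difference of -0.40. For 6 of them both APPSw arrays lay below both controls, as for 19.0% of all probe sets. Camk2a overlapped between groups, with 0.0006 by its brighter probe set and 0.44 by its dimmer one. Oligodendrocyte markers, 7 of 8 on the array and none at 0, summed to 94431 and 78203 in APPSw mice and 96686 and 102517 in controls. These groups did not overlap either, and all 7 kept genes were below 0, with a median difference of -0.28. Without Mbp, the brightest, the sums were 50546 and 41928 in APPSw mice and 51262 and 54623 in controls. Astrocyte markers, 5 of 6 on the array and none at 0, summed to 69037 and 67352 in APPSw mice and 71581 and 72673 in controls, but without Aldoc, the brightest, to 29685 and 21270 in APPSw mice and 25409 and 27162 in controls, which overlap. Sums without the brightest gene were added after the values were seen. Of the 5 kept astrocyte genes, 1 was above 0 and 4 below, with a median difference of -0.24. Aqp4 lay above both controls by both its probe sets, by 0.50 and 0.38 in log2. Slc1a2 lay below both controls, with a difference of -0.41. Gfap did so by its dimmer probe set (-0.80), while the groups overlapped by its brighter one (-0.24). Microglial markers, all 7 on the array and none at 0, summed to 25174 and 25332 in APPSw mice and 25778 and 23752 in controls, with 5 of 6 kept genes above 0, a median difference of 0.26 and 3 genes (Cd68, Cx3cr1 and Tyrobp) above both controls, while Csf1r differed by -0.48 by its brighter probe set. Several neuronal markers, such as Bok and Spock1, were listed with their values in these mice already known. In these bulk samples fewer cells of a type and less RNA per cell cannot be told apart.

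Among the 9 genes, Tef and both period genes were lower in APPSw mice, while Clock, Arntl and Dbp lay within 1.06-fold of the controls. Tef had 0.61 times the control signal, Per1 0.74 times and Per2 0.78 times. The largest difference was that of 1 of 4 Csnk1d probe sets, at 0.20 times the control signal, and the other 3 lay between 0.88 and 1.18 times. The groups did not overlap for 6 of the 12 probe sets, with APPSw lower in 4 of them and higher in 2. Over all 7453 probe sets that share was 41.2%, with 19.0% lower and 22.2% higher. The median difference of the 12, APPSw minus control on the log2 scale, was -0.13, against 0.02 over all probe sets. In size the median was 1.16-fold for the 12 and 1.14-fold for all. Arrays of 1 group differed about as much for these probe sets as for others, by a median of 1.19-fold between APPSw arrays (1.18-fold for all) and 1.16-fold between controls (1.14-fold for all).

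**Figure D1:**
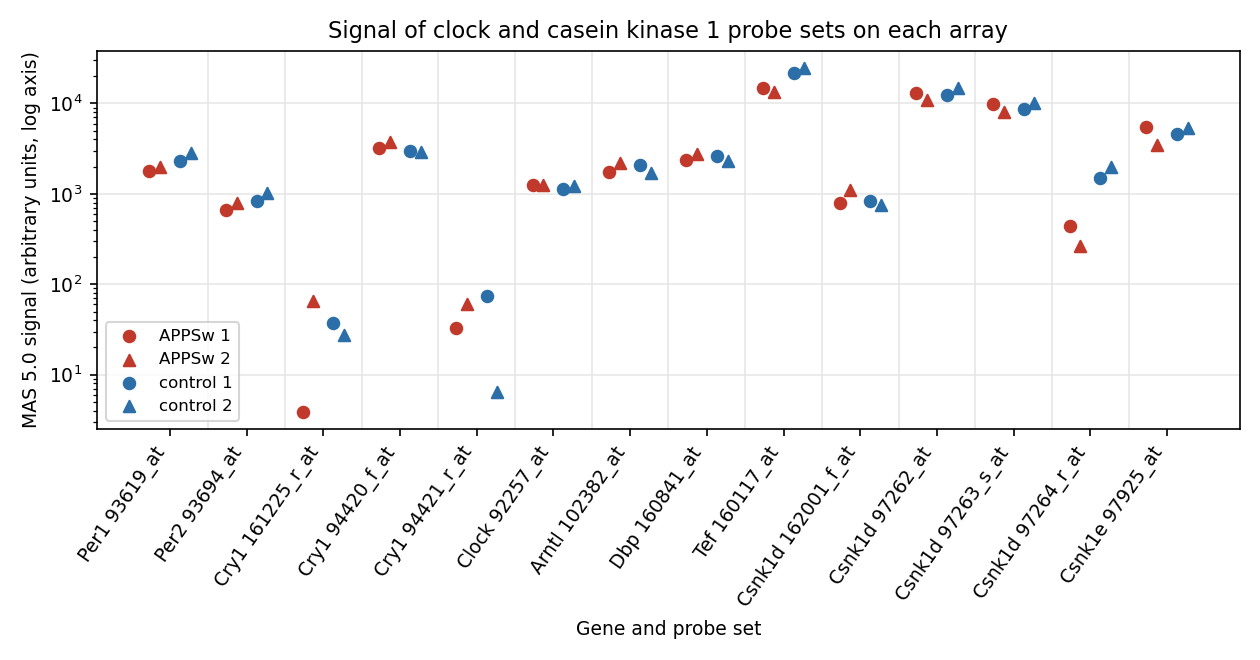
MAS 5.0 signal (log axis) of the 14 probe sets on the 4 arrays, with APPSw in red to the left and control in blue to the right of each column, circles for array 1 and triangles for array 2. Tef is the brightest, between 13318 and 24724, and the groups are apart for Tef and for Csnk1d 97264_r_at, while 2 Cry1 probe sets lie under 100 on every array.

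Clock encodes the activator CLOCK. Its signals were 1240.1 and 1258.3 in APPSw mice and 1141.8 and 1212.1 in controls. The APPSw arrays were both higher, but only by 0.09 in log2 (SE 0.17), and with each array scaled to the same median the difference was -0.01. Arntl encodes its partner. Its signals were 1763.1 and 2172.2 in APPSw mice and 2063.9 and 1689.0 in controls. The groups overlapped, with a difference of 0.07 (SE 0.21) that became -0.08 without APPSw 2 or without control 2 and -0.03 after equal median scaling. Npas2, a relative of Clock that can take its place in the forebrain and is no member, lay under the filter. It had 347.2 and 504.5 in APPSw mice and 61.0 and 368.8 in controls, with overlapping groups.

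Per1 and Per2 encode the period proteins that inhibit CLOCK and ARNTL. Per1 had signals of 1802.8 and 2003.8 in APPSw mice and 2328.1 and 2797.6 in controls. Per2 had 665.2 and 790.0 in APPSw mice and 833.0 and 1035.9 in controls. Both genes were lower on both APPSw arrays, and both ranked the arrays alike, with APPSw 1 lowest, then APPSw 2, control 1 and control 2. That order held for 4.71% of the 7453 probe sets. The Per1 difference was -0.43 in log2 (SE 0.19) and ranged from -0.56 to -0.29 with an array left out. The Per2 difference was -0.36 (SE 0.20) and ranged from -0.52 to -0.20, the smallest being that without control 2. The fold between the group means was 1.34 for Per1 and 1.28 for Per2, while the controls differed from each other by 1.20-fold and 1.24-fold. Per3, the remaining period gene and no member, went the other way, with 1484.9 and 1195.3 in APPSw mice and 1050.7 and 1093.7 in controls, a difference of 0.31 (SE 0.19, limma adjusted p = 0.655) that was 0.16 without APPSw 1.

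Cry1 encodes a cryptochrome, the partner of PER in repression. By its bright probe set, 94420_f_at, it had 3198.9 and 3731.8 in APPSw mice and 2975.0 and 2899.6 in controls. Both APPSw arrays were above both controls, by 0.23 in log2 (SE 0.18), and the APPSw arrays differed from each other by 1.17-fold, as much as the groups did. The other Cry1 probe sets, 161225_r_at and 94421_r_at, lay between 3.9 and 75.0 on the 4 arrays. Their groups overlapped, and their arrays differed within a group by up to 16.8-fold, so no difference is read from them. Of these, 94421_r_at was designed on the same sequence accession as the bright probe set. Cry2, the other cryptochrome gene and no member, had 3426.5 and 3035.1 in APPSw mice and 2419.1 and 2613.2 in controls, a difference of 0.36 (SE 0.18, limma adjusted p = 0.617). Cry2, and Cry1 by its bright probe set alone, thus lay above the controls on both APPSw arrays. So did Per3, while Per1 and Per2 lay below them.

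**Figure D2:**
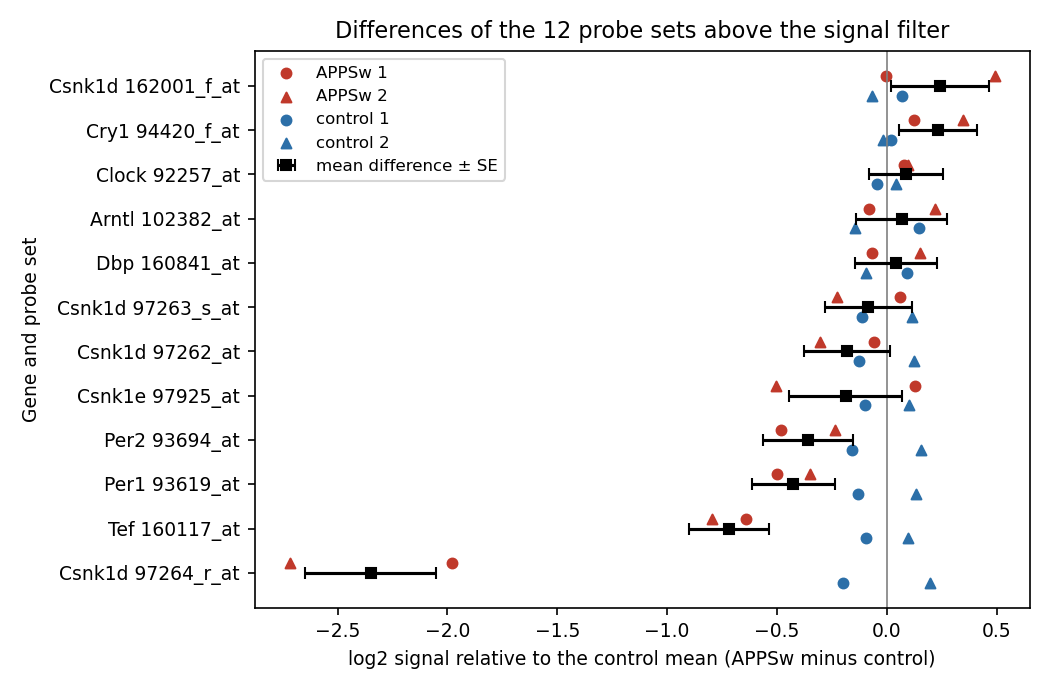
Log2 signal relative to the control mean for the 12 probe sets above the filter, ordered by difference; squares with bars give APPSw minus control ± limma's SE, red points each APPSw array and blue points each control array. Csnk1d 97264_r_at (-2.35) and Tef (-0.72) lie farthest from 0, and for 6 of the 12 the groups overlap.

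Tef encodes thyrotroph embryonic factor, a transcription factor of the PAR bZIP family. It was the brightest of the 14 probe sets, at the 96.6th percentile of signal. It had 14837.6 and 13317.6 in APPSw mice, a mean of 14078 ± 1075 (SD, n = 2), and 21660.9 and 24723.9 in controls, a mean of 23192 ± 2166 (SD, n = 2). Both APPSw arrays lay well below both controls. The difference of -0.72 in log2 (SE 0.18) was 1.65-fold, where the APPSw arrays differed by 1.11-fold and the controls by 1.14-fold. It lay between -0.82 and -0.62 in every alternative run, arrays left out and scalings included. Of the 7453 probe sets, 115 had a difference this low or lower. The neuronal and oligodendrocyte marker sums given above were lower on both APPSw arrays too. Several of the neuronal markers were listed with their values known. The part of these cell types in the Tef and period gene values was not tested.

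Dbp encodes albumin D-site binding protein, of the same family, and in most tissues is among the strongest cycling transcripts. Its signals were 2361.1 and 2745.8 in APPSw mice and 2636.0 and 2317.2 in controls. The groups overlapped, with a difference of 0.04 (SE 0.19) that was -0.07 without APPSw 2 and -0.05 both without control 2 and after equal median scaling. So Dbp did not share the lower signal of Tef. Dbp and Arntl, which peak at opposite times in many mouse tissues, ranked the arrays alike here, with APPSw 2 highest, then control 1, APPSw 1 and control 2. That order held for 5.15% of all probe sets, and with 4 arrays the likeness is only a description. The single-gene probe sets with the pattern closest to Dbp, by Euclidean distance of centred log2 signals over the 4 arrays, were those of Rars, Eif4g2 and Fhl1, at distances of 0.0068, 0.019 and 0.027.

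Csnk1d encodes casein kinase 1 delta and has 4 probe sets. By 97262_at, its brightest, it had 12970.6 and 10944.7 in APPSw mice and 12398.7 and 14753.9 in controls. By 97263_s_at it had 9799.5 and 8030.1 in APPSw mice and 8694.5 and 10187.5 in controls. Both overlapped between groups and ranked the arrays alike, with control 2 highest and APPSw 2 lowest. The dimmer 162001_f_at had 789.7 and 1112.0 in APPSw mice and 829.8 and 755.6 in controls, and overlapped too. The differences of these 3 were -0.18 (SE 0.20), -0.09 (SE 0.20) and 0.24 (SE 0.22). The sign of 97263_s_at turned to 0.06 without APPSw 2 and to 0.03 without control 2, and that of 162001_f_at to -0.0039 without APPSw 2.

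The fourth Csnk1d probe set, 97264_r_at, had 437.3 and 262.6 in APPSw mice and 1505.7 and 1979.4 in controls. Both APPSw arrays were far below both controls and under the filter's signal of 565, so the probe set was kept through the controls alone. Its difference of -2.35 (SE 0.30) was the lowest of all 7453 probe sets and the largest in size. It was -1.74 with a pseudocount of 250 added and -2.72 to -1.98 with an array left out. Yet 97263_s_at, designed on the same sequence accession, differed by only -0.09. The gap of 2.26 between the pair was the largest of 176 pairs of kept probe sets that share an accession, whose median gap was 0.26. The genes were picked in part on the large difference of this probe set, and the gap rests on that difference. Both ranks are therefore descriptions only. The suffix _r_at marks probe sets for which the manufacturer relaxed its rules of probe choice. For the 57 such pairs with 1 probe set of that suffix, the median gap was 0.34. Differences were larger in size for this class as a whole, with a median of 0.26 over 357 kept _r_at probe sets and 0.19 over 6060 kept probe sets with the plain suffix. The part of probe choice, or of a transcript form that only this probe set reads, was not tested. The probe sets nearest to it in pattern were those of Otog, Hcrt and Sox10, at distances of 0.87, 0.89 and 0.94. Neighbours of the lowest difference must themselves have low ones, here -1.68, -1.51 and -1.64, so the likeness is only a description. Otog and Hcrt also lay under 565 on both APPSw arrays.

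**Figure D3:**
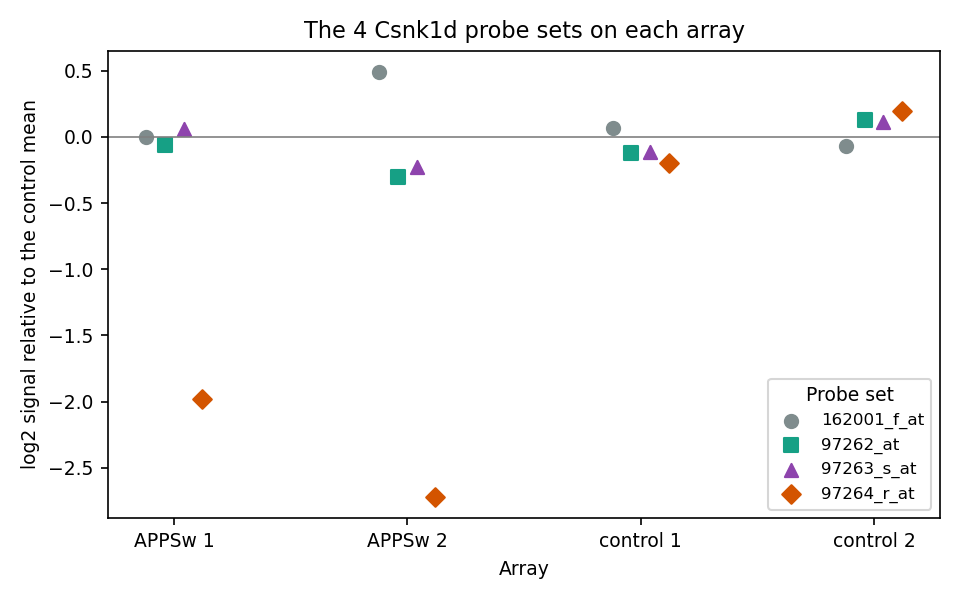
Log2 signal of the 4 Csnk1d probe sets on each array, relative to the mean of the 2 controls for that probe set. The diamonds of 97264_r_at lie at -1.98 and -2.72 on the APPSw arrays, while the other 3 probe sets stay between -0.31 and 0.49.

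Csnk1e encodes casein kinase 1 epsilon, the close relative of the delta form. It had 5449.9 and 3511.9 in APPSw mice and 4652.1 and 5332.3 in controls. The 2 APPSw arrays lay above and below both controls, and differed from each other by 1.55-fold. The difference of -0.19 (SE 0.26) was 0.13 without APPSw 2 and -0.50 without APPSw 1, so no direction is given. APPSw 1, the higher array here, is the one with the high choroid plexus sum. It was also the highest array for Per3, Cry2, Timeless and Cirbp, which are no members. APPSw 2 was highest for others, such as Nr1d1 and Adcyap1. The part of the choroid plexus in any of these values was not tested.

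Outside the members, 10 of 16 further core clock genes were on the array and 8 passed the filter. By limma 0 of the 8 were higher and 0 lower at the adjusted threshold, with 1 at an unadjusted p under 0.05 (8.05% over all probe sets). The groups did not overlap for 6 of the 8, 4 higher and 2 lower, where over all probe sets the share was 41.2%, with 22.2% higher and 19.0% lower. The median difference was 0.16, against 0.02 over all probe sets. Nr1d2, which encodes the repressor REV-ERB beta, had 2696.6 and 2703.3 in APPSw mice and 3599.2 and 4906.4 in controls, a difference of -0.64 (SE 0.21, limma adjusted p = 0.600). Nr1d1, which encodes its relative REV-ERB alpha, had 1271.1 and 1882.6 in APPSw mice and 1106.1 and 1192.4 in controls, a difference of 0.43 (SE 0.24, limma adjusted p = 0.634). It was 0.15 without APPSw 2 and 0.71 without APPSw 1, and the Nr1d2 difference was -0.41 without control 2. The pair of REV-ERB genes, both direct inhibitors of Arntl transcription, thus lay on opposite sides of the controls, and Arntl itself overlapped between groups. Bhlhe40, an E-box repressor, had 4147.4 and 3884.1 in APPSw mice and 4623.3 and 4920.1 in controls, a difference of -0.25 (SE 0.17). Timeless, the mammalian relative of a fly clock gene that acts mainly at replication forks, had a difference of 0.41 (SE 0.20), and of 0.26 without APPSw 1. Rora, an activator of Arntl, differed by 0.004 (SE 0.30) by its kept probe set, with overlapping groups. Nfil3, a repressor at D-boxes, differed by -0.01 (SE 0.35) by its kept probe set, while its dim probe set had 276.1 and 302.3 in APPSw mice and 492.7 and 474.4 in controls. Hlf, the third gene of the PAR bZIP family, had no probe set here under a single symbol.

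**Figure D4:**
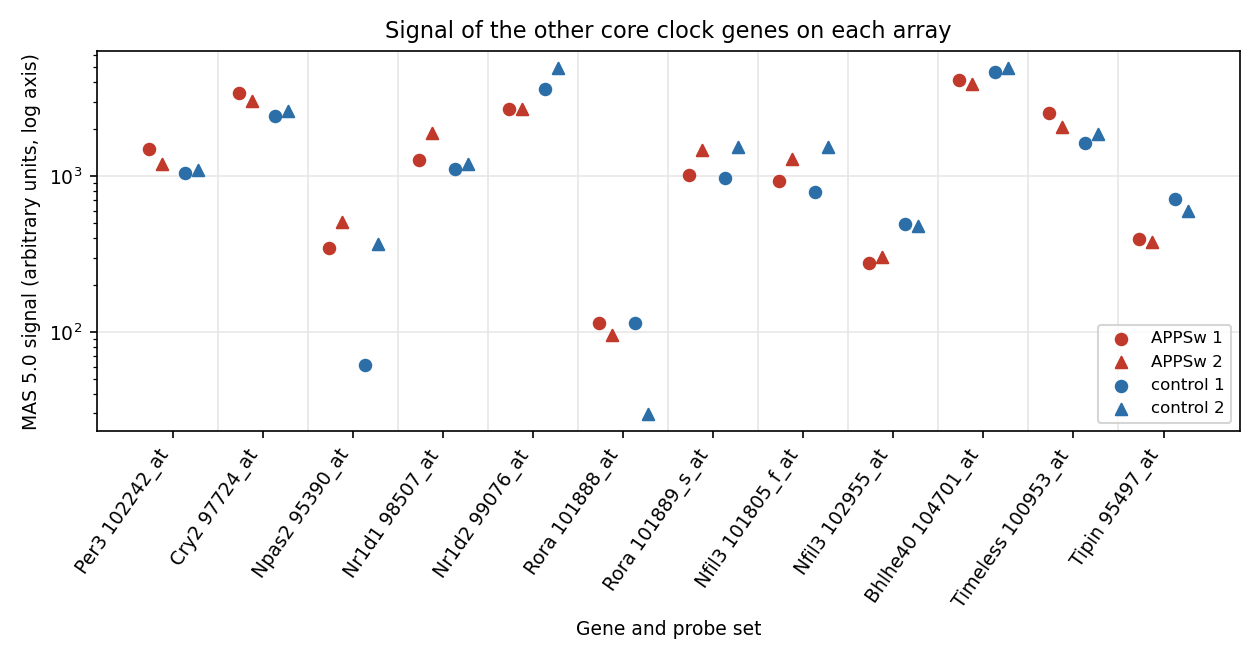
MAS 5.0 signal (log axis) of the 12 probe sets of other core clock genes on the 4 arrays, with APPSw in red to the left and control in blue to the right. Nr1d2 and Bhlhe40 are lower on both APPSw arrays than on both controls. So are Tipin and the dim Nfil3 probe set, both under the filter. Nr1d1, Per3, Cry2 and Timeless are higher on both APPSw arrays than on both controls. The groups overlap for Npas2, for both Rora probe sets and for the kept Nfil3 probe set.

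Enzymes that modify or degrade clock proteins, listed together with the PER partners Nono and Wdr5, gave 16 of 25 genes on the array. Of these, 15 were kept, and by limma 0 were higher and 0 lower at the adjusted threshold. Their median difference was -0.03. By limma 8.05% of all probe sets had an unadjusted p under 0.05, and of these genes 2 did by their brightest kept probe set. Counting any kept probe set, which gives some genes several ways to pass, 4 did. The lowest of these was that of Nono, a PER-binding RNA-binding protein gene named here after its value was seen, with a difference of -0.77 (SE 0.19, limma adjusted p = 0.599) by 93831_at and -0.19 (SE 0.18) by its brighter probe set. In the casein kinase 1 family, Csnk1g2 had 12002.1 and 10405.0 in APPSw mice and 17214.5 and 14962.6 in controls, a difference of -0.52 (SE 0.19, limma adjusted p = 0.609). Csnk1a1, the alpha form, gave 0.10 (SE 0.19) and 0.01 (SE 0.20) by its probe sets, with overlapping groups. Btrc, a ubiquitin ligase subunit that recognises phosphorylated PER, was lower on both APPSw arrays by both its probe sets, by -0.27 (SE 0.19) and -0.39 (SE 0.18), with the first at -0.13 without APPSw 2. Its relative Fbxw11 gave 0.26 (0.14 without control 2) and -0.31 by different probe sets, and so did Usp7, a deubiquitinase that stabilises CRY, with -0.32 and 0.21. Wdr5, a histone methyltransferase subunit found with PER complexes, had 3330.8 and 1550.6 in APPSw mice and 4587.2 and 6426.1 in controls, a difference of -1.26 (SE 0.39, limma adjusted p = 0.599). It was -0.70 without APPSw 2 and -1.81 without APPSw 1. Casein kinase 2 alpha, Csnk2a1, ranged over its 4 probe sets from -0.82 to 1.40, where the 4 Csnk1d probe sets ranged from -2.35 to 0.24.

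Among clock outputs and genes of systemic rhythms, 11 of 14 were on the array and 8 were kept, and by limma 0 were higher and 0 lower at the adjusted threshold. The median difference was -0.11, and 1 gene had an unadjusted p under 0.05 (8.05% over all probe sets). That gene was Adcyap1, which encodes the neuropeptide PACAP that relays light to the clock. It had 1107.6 and 1144.4 in APPSw mice and 606.3 and 707.9 in controls, a difference of 0.78 (SE 0.18, limma adjusted p = 0.599). Cirbp, a cold-inducible RNA-binding protein gene that follows body temperature, differed by 0.40 (SE 0.19), and by 0.26 without APPSw 1. Nampt and Alas1, metabolic genes under clock control, differed by -0.34 (SE 0.17) and -0.26 (SE 0.18), with Alas1 at -0.16 without APPSw 2. Per1 is also induced by CREB when neurons are active, and of 10 such activity genes 8 were on the array and 7 were kept. By limma 0 of the 7 were higher and 0 lower at the adjusted threshold. Over all probe sets 8.05% had an unadjusted p under 0.05. Of the 7 genes, 1 did by its brightest kept probe set, or 2 counting any kept probe set. The second was Junb, named after its value was seen, with -0.70 (SE 0.28) by 102362_i_at and -0.20 (SE 0.22) by its brighter probe set. By their brightest kept probe sets 3 of the 7 genes lay above 0 and 4 below. Egr1 by its kept probe set had 4183.9 and 3600.3 in APPSw mice and 5558.8 and 8357.8 in controls. The difference was -0.81 (SE 0.25, limma adjusted p = 0.599), and -0.52 without control 2. Its dim probe set, under the filter, went the other way. It had 722.2 and 322.1 in APPSw mice and 310.2 and 141.6 in controls, a difference of 1.20. Fosb had 2773.3 and 3235.7 in APPSw mice and 1977.5 and 2756.2 in controls, a difference of 0.36 (SE 0.23) that was 0.12 without control 1 and 0.60 without control 2. Nr4a1 differed by -0.13 (SE 0.17), and by -0.09 without APPSw 2.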

How the data were processed

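Left hippocampal RNA was measured on 4 oligonucleotide arrays, 2 APPSw and 2 control, and groups came from the sample titles. The values are signal intensities on a linear scale, which the authors made in MAS 5.0 with a scaling target of 2500, per the labels. The sources used here give no background settings and no present calls. Of 12488 probe sets, 66 manufacturer's controls were left out. Of the rest, the platform annotation gave 10833 a single gene symbol, 396 several and 1193 none, and no gene was named from several.

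Log2 signals were fitted in R 4.3.3 with limma 3.58.1, using lmFit, eBayes and two-sided tests. The p-values were Benjamini-Hochberg adjusted over the 7453 probe sets kept at the 40th percentile of mean log2 signal. For Cry1, Npas2 and other probe sets under that filter, values come from the fit without it. The fit had 2 residual and 3.7 prior degrees of freedom. SE is limma's moderated one. The fit was tested on simulated data. The smallest two-sided p of an exact permutation test at this size is 0.333. The labels do not say that the arrays of a group came from different animals, so p-values reflect only the spread of these arrays, part of which may be technical, and the number of arrays limits the precision.

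The members and lists were chosen with earlier results of these data known. Named are all members, 12 set clock genes, and in each of 4 lists up to 6 kept genes with the largest difference among those whose groups do not overlap, by the gene's brightest kept probe set. The 3 nearest patterns to 2 member probe sets are also named, and Vip is shown as a marker. Tipin is named because its probe set is drawn in a figure. Same-numbered arrays did not deviate together over all kept probe sets (correlation of deviations -0.02). This cannot exclude a pairing, and the labels do not say whether the numbers pair the samples. Alternatives were equal median scaling, quantile normalization, a 60th percentile filter and none, an added pseudocount of 250, an intensity trend, a block on the replicate number, each array left out, and averaging of the probe sets of Csnk1d and of Cry1.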

Additional observations from a re-analysis of the deposited data

How the results depend on the processing

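With limma, 0 probe sets passed the adjusted threshold under each of the 11 alternatives, and the lowest adjusted p over them was 0.166. The number with an unadjusted p under 0.05 was 600, and 402 to 749 with an array left out. With the replicate number as a block it was 559, and the block changed no call. The number of member probe sets whose groups did not overlap was 6, and it was 3 with the filter at the 60th percentile, which keeps fewer of them, and 6 to 12 with an array left out, where 3 arrays overlap less easily. It was 12 without APPSw 1 and 11 without control 1. No share over all probe sets is given for these runs of 3 arrays, and the 41.2% above is for 4 arrays. These counts therefore cannot show whether the members differ from other probe sets, and nothing is read from them. The differences of Per1, Per2, Tef, Cry1 94420_f_at, Csnk1d 97262_at and Csnk1d 97264_r_at kept their sign in all alternatives that kept the probe set, and the other 6 kept member probe sets changed sign in at least 1. Equal median scaling moved the median of all probe sets from 0.018 to -0.079. The mean over all 4 Csnk1d probe sets was -0.59, carried by 97264_r_at, and over the 3 Cry1 probe sets it was 0.08. With no present calls used, it is not known which dim probe sets lay above background.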
